A study of Mus musculus with 18 samples.

Results

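The molar epithelium of mice that lack Hmgn1 and Hmgn2 (labelled DKO, Hmgn1-/-; Hmgn2-/-) was followed between embryonic day 17 (E17) and postnatal day 5 (P5). Its members are 6 of the 18 RNA libraries of the series, 3 of the double knockout at P5 and 3 of the double knockout at E17, chosen by genotype and stage alone. Wild-type (WT) epithelium, which carries both genes, was sequenced at the same stages, 3 libraries at P5 and 3 at E17, and stands beside the double knockout wherever the genotypes are compared. Total RNA came from tooth germs whose epithelium had been freed from the mesenchyme with 1 U/ml dispase, and 1 µg of it was depleted of ribosomal RNA for each library. The labels name neither the alleles nor the number of animals behind a library, so p-values measure the spread between libraries, which may be technical.

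Enamel is made by ameloblasts, which arise from the inner enamel epithelium when its cells leave the cell cycle, elongate and begin to secrete matrix. Amelogenin, ameloblastin and enamelin form that matrix, the protease MMP20 cuts it during secretion, and KLK4 removes it during the later maturation stage. In the mouse molar E17 lies before enamel secretion and P5 within it. HMGN1 and HMGN2 are small nucleosome-binding proteins that loosen compacted chromatin.

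A gene's level is the sum of the RPKM of its transcripts, divided by a library factor that gives every library the same upper quartile (scaled RPKM). A log2 difference is the mean log2(scaled RPKM + 1) at P5 minus that at E17. The P5 and E17 libraries stand in separate tables with different transcript annotations, so stage and table cannot be told apart, no p-value was computed between stages, and differences under 4-fold were not read. A gene rose or fell where its log2 difference was at least 2 in size and the 3 P5 libraries all lay on the same side of the 3 E17 libraries. The genotype contrast at P5 minus that at E17 stays inside each table, and its p-value comes from limma with Benjamini-Hochberg adjustment over 13050 genes. That value is the change in DKO minus the change in WT, and it was called at an adjusted p under 0.05 with a difference of at least 1 on the log2 scale.

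The DKO libraries held 39209676 to 72660832 alignments at P5 and 71800418 to 99967427 at E17. Across genes, log2 values correlated at 0.995 to 0.996 within DKO P5 and at 0.992 to 0.997 within DKO E17, and at 0.776 to 0.795 between them. Hmgn2 (mm10 chromosome 4, 133964738 to 133968650) stood at 11.6, 7.05 and 13.2 scaled RPKM in DKO at P5 and 0.697, 0.719 and 0.739 in DKO at E17. In WT it stood at 189.6, 183 and 187 at P5 and 334, 327 and 312 at E17. The residual Hmgn2 signal of the double knockout rose by a log2 difference of 2.71, against -0.79 in WT (difference 3.51 ± 0.18 SE, adjusted p = 1.54e-06). An effect of annotation cancels in this difference only if it is the same in both genotypes. Its part in the residual Hmgn2 signal was not tested. Hmgn1 (chromosome 16, 96120618 to 96127729) was lower in DKO than in WT without reaching 0: 92.7, 90.4 and 91.9 in DKO against 194, 209 and 201.7 in WT at P5, and 71.6, 70.1 and 70.3 in DKO against 126, 122.5 and 119.7 in WT at E17. Gene sums do not separate the targeted exons from other exons or from processed copies of these genes.

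Library composition differed between the stages. Markers of dental epithelium (8 genes, such as Krt5 and Epcam) summed to 4699 to 4822 in DKO at P5 and 1624 to 1671 at E17. Markers of ameloblasts (7 genes) summed to 250248 to 300815 at P5 and 12.97 to 15.1 at E17. Those of cornifying epithelium, mesenchyme, skeletal muscle, red cells and brown fat lay lower at P5 in each case, as the plot of marker sums shows. Mesenchyme markers (8 genes) summed to 1076 to 1560 in DKO at P5 and 1957 to 1984 at E17. The X-inactivation transcript Xist stood at 37.0, 42.2 and 1.35 in the DKO P5 libraries and 31.5, 10.02 and 26.3 in the DKO E17 libraries, against 0.438, 0.848 and 1.19 in WT at P5 and 49.7, 51.0 and 60.5 in WT at E17. Amelx is X-linked, and the part of this imbalance in its values was not tested. In bulk RNA, fewer cells of a type and less RNA per cell cannot be told apart.

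**Figure D1:**
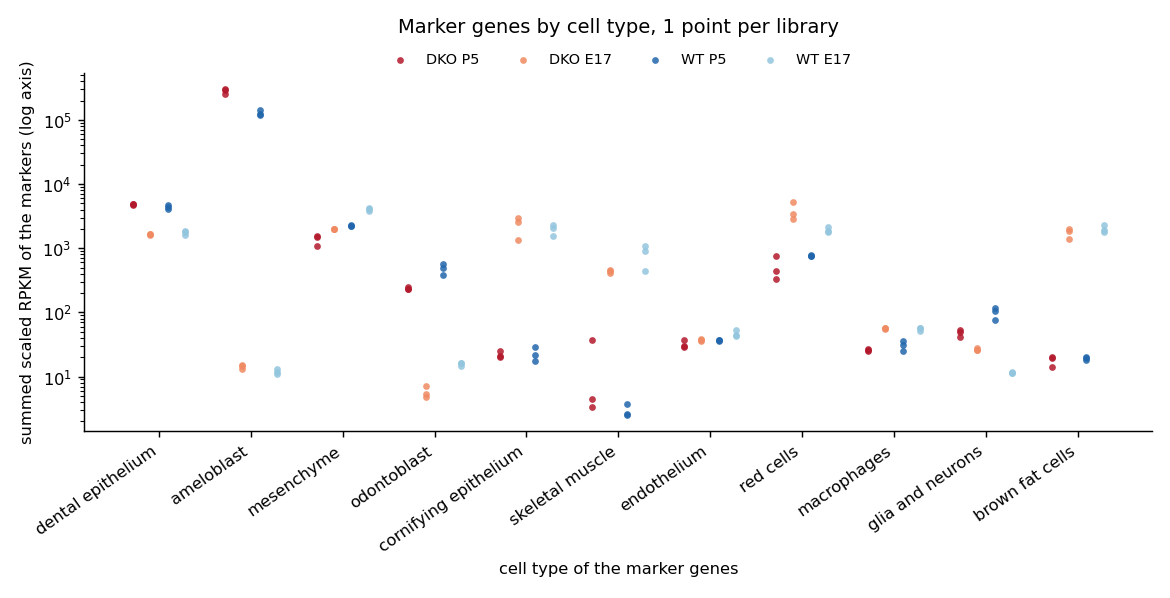
Summed scaled RPKM of marker genes (log axis) for 11 cell types, 1 point per library, with DKO P5, DKO E17, WT P5 and WT E17 side by side in each column. Ameloblast markers in DKO reach 250248 to 300815 at P5 and 12.97 to 15.1 at E17, and brown fat markers 14.2 to 19.9 at P5 and 1394 to 2007 at E17.

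Between the stages 412 genes rose and 560 fell in the double knockout, 3.16% and 4.29% of 13050 genes and 7.45% together. Of these, 57 of the genes that rose and 144 of those that fell belong to 31 gene lists described here, brown fat not counted. List counts are to be read beside the 3.16% of all genes that rose and the 4.29% that fell. The median log2 difference over all genes was -0.24, and list medians are to be read beside it. Without scaling the median was -0.83, with 213 genes higher and 1203 lower (15.0% higher of those counted, against 42.4% with scaling), and with median-of-ratios scaling it was -0.02, with 498 higher and 462 lower (51.9% higher). The counts near the threshold are dense: 174 of the genes that rose and 267 of those that fell lay within 0.5 of it on the log2 scale. Just inside it lay Id4 (2.01) and Sh3bgrl (-2.004), and just outside it Col2a1 (-1.998) and Rassf9, whose log2 difference was 2.14 with libraries that overlapped. A gene entered the set with at least 1 RPKM in 3 of the 6 DKO libraries, so a list member could enter through the stage at which it was high, and the list counts below describe the members that entered.

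**Figure D2:**
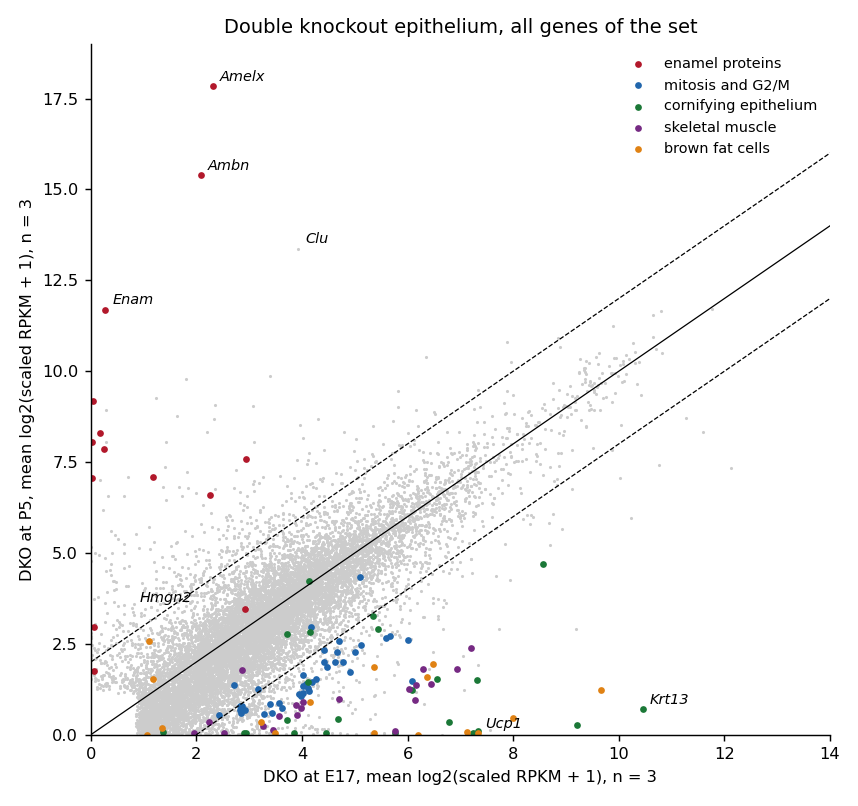
Mean log2(scaled RPKM + 1) of each gene in DKO at P5 (vertical axis) and at E17 (horizontal axis), 3 libraries each, with 5 gene lists in colour. The solid line marks equal levels and the dashed lines a log2 difference of 2 in each direction; Amelx, with a log2 difference of 15.53, lies farthest above them and Krt13, with -9.75, farthest below.

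Enamel proteins made up the top of the list of genes that rose. Amelx, which encodes amelogenin (chromosome X, 169176114 to 169187200), reached 252842, 246220 and 206579 scaled RPKM at P5, against 3.39, 3.55 and 5.13 at E17, a log2 difference of 15.53. Its rank among the 13050 genes was 1 in each P5 library and 9739, 9513 and 8196 in the E17 libraries. Amelx alone held 39.2%, 38.4% and 34.4% of the summed RPKM of the DKO P5 libraries, against 0.00104%, 0.00107% and 0.00156% at E17. No other gene of the set had as high a level in any DKO P5 library. Ambn, for ameloblastin (chromosome 5, 88455991 to 88468531), stood at 44094, 44859 and 39941 at P5 and 2.95, 3.60 and 3.23 at E17, a log2 difference of 13.30. Enam, for enamelin (chromosome 5, 88487975 to 88506049), stood at 3273, 3471 and 3159 at P5 and 0.217, 0.205 and 0.209 at E17, a log2 difference of 11.41. These 3 matrix genes left no overlap between stages and were below or near 5 at E17 in every DKO library.

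The sequences of these 3 genes just before and after their start are shown because these matrix genes had the 3 largest rises. Each window runs from 250 bases before to 50 bases after the RefSeq start (build GRCm38.p6), 5′ to 3′ on the gene's strand: chrX:169187160-169187459 (minus strand) for Amelx, chr5:88455741-88456040 (plus strand) for Ambn and chr5:88487725-88488024 (plus strand) for Enam. Capitals mark CCAAT or its reverse complement ATTGG, and TTTGAA or its reverse complement TTCAAA, searched on both strands; the motifs do not overlap each other.
Amelx: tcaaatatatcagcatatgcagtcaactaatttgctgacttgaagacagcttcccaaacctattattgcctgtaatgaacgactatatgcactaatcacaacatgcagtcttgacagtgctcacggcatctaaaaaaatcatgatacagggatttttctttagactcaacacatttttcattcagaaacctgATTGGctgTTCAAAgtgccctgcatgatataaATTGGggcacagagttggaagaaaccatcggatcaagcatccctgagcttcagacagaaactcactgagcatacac
Ambn: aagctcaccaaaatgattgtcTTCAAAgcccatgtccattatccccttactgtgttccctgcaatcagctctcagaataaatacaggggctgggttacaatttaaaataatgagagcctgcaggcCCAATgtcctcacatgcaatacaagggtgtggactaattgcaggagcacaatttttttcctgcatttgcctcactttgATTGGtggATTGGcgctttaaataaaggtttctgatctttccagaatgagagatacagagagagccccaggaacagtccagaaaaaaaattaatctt
Enam: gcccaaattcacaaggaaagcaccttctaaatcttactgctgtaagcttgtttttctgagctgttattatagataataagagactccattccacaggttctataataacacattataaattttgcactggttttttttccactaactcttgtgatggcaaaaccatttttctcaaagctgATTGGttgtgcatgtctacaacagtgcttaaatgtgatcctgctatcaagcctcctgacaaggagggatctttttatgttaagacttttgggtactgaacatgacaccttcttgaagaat

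CCAAT occurred in all 3 windows, 2 times in Amelx, 3 times in Ambn and 1 time in Enam, and it occurs in 41.1% of the windows of 27025 genes. Of the 16 members of the enamel list 11 had a window, and 7 of these held CCAAT. Matches describe letters only and say nothing of factors bound there.

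Of the 16 members of the enamel list (matrix proteins, proteases and secreted ameloblast proteins), 15 were in both tables and 14 in the gene set, where 12 rose and 0 fell, with a median log2 difference of 7.32. Wdr72 did not enter the set, and Scpppq1 was not analysed here. Among the proteases, Mmp20 (chromosome 9, 7628231 to 7674979) reached 257, 277 and 259.5 at P5, against 0.0252, 0.00685 and 0.0333 at E17 (log2 difference 8.02). Klk4, the maturation protease, reached only 6.91, 7.33 and 6.02 at P5, against 0.0442, 0.0360 and 0.0438 at E17 (log2 difference 2.89). Both rose, and every P5 library of Mmp20 lay above those of Klk4 on the per-length scale.

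Acp4, a phosphatase whose loss causes thin enamel in humans, stood at 585, 592 and 558 at P5 and 0.0234, 0.0138 and 0.0376 at E17 (log2 difference 9.14). Amtn, for amelotin of the maturation stage, stood at 166, 127 and 108 at P5 and was listed at 0, 0 and 0.0357 at E17 (7.03). Odam, a partner of amelotin, was already present at E17, with 6.34, 7.28 and 6.45, and stood at 176, 207 and 195 at P5 (4.65). The libraries of the 2 stages were separate for each of these genes. Fam20a and Fam20c, which encode a pseudokinase and the kinase that phosphorylates secreted enamel proteins, rose by 5.91 and 4.33. Csn3, the kappa-casein gene of the same chromosome 5 cluster (87925579 to 87932665), spread most among the P5 libraries, at 603, 325 and 161, against 0.139, 0.136 and 0.110 at E17 (8.13). Odaph, with 2.99, 2.74 and 1.52 at P5 and at most 0.0727 at E17 (1.68), and Fam83h (0.55) stayed under the 4-fold rule.

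**Figure D3:**
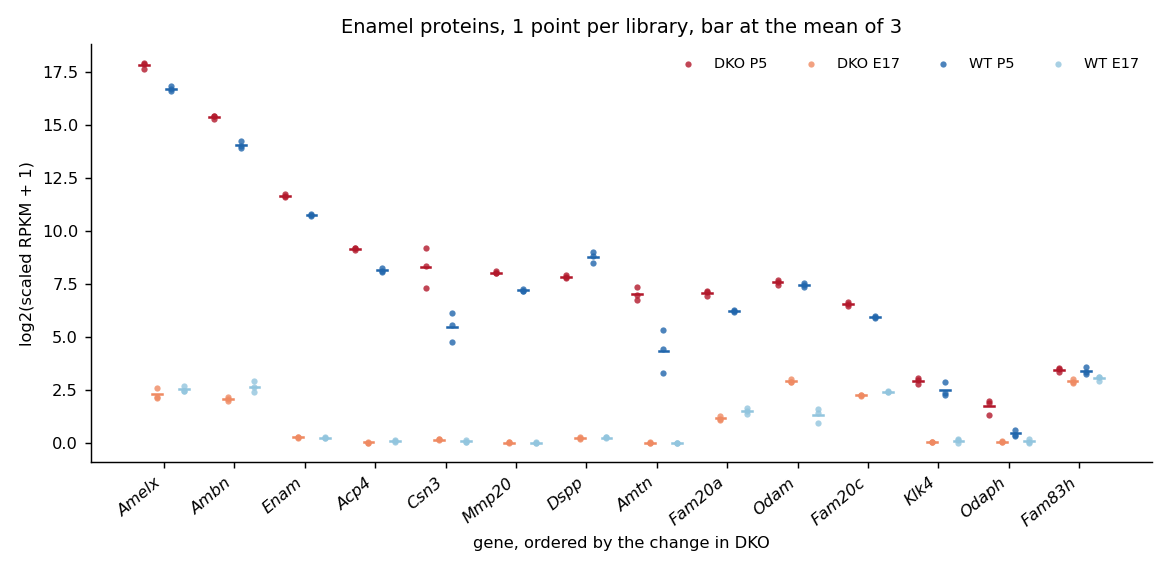
Log2(scaled RPKM + 1) of the 14 enamel genes in the set, 1 point per library and a bar at the mean of 3, for DKO P5, DKO E17, WT P5 and WT E17. Genes run left to right from the largest to the smallest change in DKO, and 12 of the 14 rose by the 4-fold rule; Csn3 and Amtn show the widest gap between DKO and WT at P5.

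Outside that list, the largest rises were those of Clu, Calb1, Dspp, Papln and Ctnna2. Clu, for the secreted chaperone clusterin, stood at 9816, 10985 and 10884 at P5 and 16, 12.2 and 14.7 at E17 (log2 difference 9.44). Calb1, for the calcium-binding protein calbindin that ameloblasts are known to hold, stood at 456, 493 and 527 at P5 and 0.236, 0.149 and 0.262 at E17 (8.66). Dspp, best known as the odontoblast gene for dentin sialophosphoprotein but also transiently used by young ameloblasts, stood at 226, 243 and 223 at P5 and 0.150, 0.178 and 0.239 at E17 (7.61). Papln, for the matrix protein papilin, rose by 6.71 and Ctnna2, for an alpha-catenin best known from neurons, by 6.62.

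Ion transport genes moved less. Of 29 members of the list in the set, 5 rose and 1 fell, with a median of 1.20 (3 and 1 without scaling). Slc13a5, the citrate transporter, stood at 113, 115 and 104 at P5 and 2.0, 3.29 and 2.56 at E17 (log2 difference 4.96). Slc4a4, the bicarbonate cotransporter of ameloblasts, stood at 64.8, 62.7 and 59.1 at P5 and 4.39, 5.01 and 5.43 at E17 (3.41). The zinc transporter Slc39a4 (2.68), the calcium pump Atp2b1 (2.31) and the gap junction gene Gja1 (2.15) rose as well. Cftr, the chloride channel used in maturation, reached 2.36, 2.65 and 2.75 at P5, against 0.291, 0.217 and 0.289 at E17 (1.502), and stayed under the rule. Ctsk, the collagen-degrading protease of osteoclasts, fell, with 41.9, 19 and 64.7 at P5 and 245, 218 and 226 at E17 (-2.59). The P5 libraries of Ctsk spread by more than 3-fold, unlike those of the transporters.

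Genes of adhesion to the basement membrane led the list of keratins and junctions. Lamb3, for a chain of the laminin that anchors basal keratinocytes, stood at 371, 394 and 343 at P5 against 14.3, 15.1 and 14.1 at E17 (log2 difference 4.57). Lama3, for another laminin chain, stood at 150.4, 165 and 152 at P5 against 5.67, 5.87 and 5.57 at E17 (4.55). No P5 library of either gene overlapped an E17 library. Itgb6, the integrin subunit without which mice form defective enamel, rose by 3.97 on the log2 scale, and the hemidesmosome genes Col17a1 and Itgb4 by 2.19 and 2.15. The tight junction gene Cldn1 stood at 209, 221 and 213 at P5 and 17.7, 15.6 and 16.2 at E17 (3.62). Krt14, the basal keratin, stood at 1895, 1918 and 1971 at P5 and 472, 453 and 447 at E17 (2.07; under the rule at 1.36 without scaling and at 1.91 with the largest transcript). In all, 8 of 36 members rose and 4 fell (median 0.66), against 5 and 8 without scaling. The 4 that fell with scaling were the tight junction gene Cldn4 (-3.05), the simple-epithelium keratins Krt18 (-2.66) and Krt19 (-2.02) and the desmosomal cadherin Dsg3 (-2.48). Krt19 was at -1.77 with median-of-ratios scaling and between -1.86 and -1.95 without any of DKO P5 replicate 3, DKO E17 replicate 1 or DKO E17 replicate 3.

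Transcription factors of the dental epithelium split evenly, with 4 of 39 rising and 4 falling (median 0.13), beside 3.16% and 4.29% over all genes. With median-of-ratios scaling 8 rose and 1 fell, and without scaling 1 rose and 7 fell. Satb1, a chromatin organiser of ameloblasts, stood at 64.3, 66.0 and 59.9 at P5 and 5.53, 5.26 and 4.97 at E17 (log2 difference 3.36). Dlx3, a homeobox factor mutated in human enamel disease, stood at 115, 113 and 109 at P5 and 18.3, 17.4 and 16.8 at E17 (2.62, and 1.92 without scaling). Sp6, the zinc-finger factor needed for ameloblast differentiation, stood at 201.5, 226 and 218 at P5 and 50.8, 52.4 and 50.3 at E17 (2.05, and 1.34 without scaling). Msx2, a homeobox factor of the same cells, rose at the edge of the rule, with 78.8, 75.8 and 71.6 at P5 and 17.3, 18.7 and 17.9 at E17 (2.01; 1.32 without scaling, 1.93 with the largest transcript, and 1.98 and 1.99 without DKO P5 replicate 1 and DKO E17 replicate 1). Of these factors Satb1 alone rose without scaling.

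The 4 factors that fell were Msx1 (-2.30), Cebpa (-2.19), Dlx1 (-2.16) and Nkx2-3 (-2.01). Msx1, the mesenchymal homeobox gene of the tooth germ, stood at 14.2, 9.73 and 10.7 at P5 and 62.2, 58.8 and 59.8 at E17. Cebpa, Dlx1 and Nkx2-3 came to -1.95, -1.91 and -1.82 with median-of-ratios scaling, and Dlx1 to -1.57 with the largest transcript. Nkx2-3 also came to between -1.94 and -1.98 without DKO P5 replicate 1 or 3 or DKO E17 replicate 2. Among 20 progenitor markers Cldn10 rose (2.44) and Sox2 fell, with a median of -0.78 (0 rose and 4 fell without scaling). Beside 3.16% and 4.29% over all genes, this count says nothing particular to the list. Sox2, the stem cell factor of the dental lamina and of oral epithelium, stood at 0.0600, 0.0936 and 0.0834 at P5 and 11.7, 8.96 and 9.99 at E17 (-3.37). Lgr5 (-1.64) stayed under the rule.

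Signals of the inner enamel epithelium were divided among their ligands, with 5 of 20 rising and 3 falling (median 0.37), against 1 and 6 without scaling. Wnt6, a Wnt ligand, stood at 90.7, 106 and 107 at P5 and 14.9, 16.3 and 13.8 at E17 (log2 difference 2.68), and Wnt10a, mutated in human tooth agenesis, at 49.0, 53.6 and 54.2 at P5 and 8.23, 7.72 and 7.67 at E17 (2.59). Wnt10b fell, with 1.53, 1.11 and 2.03 at P5 and 8.89, 10.5 and 9.23 at E17 (-2.06; -1.30 with the largest transcript, -1.86 with median-of-ratios scaling, and -1.93 and -1.99 without DKO P5 replicate 2 and DKO E17 replicate 2). Bmp4 (2.52), Bmp7 (2.20) and the cell cycle inhibitor Cdkn1a rose. Without scaling Wnt6 (1.98), Wnt10a (1.91) and Bmp4 (1.83) came under the rule. Inhba, for activin A (-2.82), and Fgf3, a growth factor of early tooth germs (-2.495), fell.

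Shh, the Hedgehog ligand of the inner enamel epithelium (chromosome 5, 28456815 to 28467256), stood at 56.5, 60.05 and 60.7 at P5 and 52.8, 51.7 and 51.3 at E17. Its log2 difference of 0.18 was under the rule and turned to -0.52 without scaling. In WT the same gene stood at 143, 95.3 and 129.6 at P5 and 20.5, 14.9 and 20.8 at E17, a log2 difference of 2.64. The change in DKO was smaller than in WT by 2.46 on the log2 scale (-2.46 ± 0.17, adjusted p = 1.10e-07), and it kept its call in every alternative. The DKO libraries lay above the WT libraries at E17 and below them at P5, without overlap. None of 17 Hedgehog pathway genes in the set rose or fell by the 4-fold rule in DKO (median 0.02). The receptor and target Ptch1 (0.83) and the target Gli1 (1.09) were among them.

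The BMP and TGF-beta pathway had 39 members in the set, of which 8 rose and 1 fell (median 0.78). Beside Bmp4 and Bmp7 they were the ligands Bmp8a (2.56), Bmp5 (2.27) and Inhbb (2.24), the receptor Tgfbr2 (2.32), the pseudoreceptor Bambi (2.20) and the target Id4 (2.01). Without scaling 1 of the 8 rose and 4 genes of the list fell. In the Wnt pathway 2 of 40 rose and 3 fell (median -0.51; 0 and 5 without scaling), Wnt6 and Wnt10a against Wnt10b, the receptor Fzd1 (-2.35) and the secreted inhibitor Sfrp2 (-3.41). In the FGF pathway 1 of 23 rose and 2 fell (median -1.26), with 8 falling without scaling and 10 with a pseudocount of 0.1. They were Fgf1 (2.83) against Fgf3 and the FGF-binding protein Fgfbp1 (-4.19). Over all genes 3.16% rose and 4.29% fell, so the small Wnt and FGF counts are not read as particular to these pathways. The Notch ligands Jag1 (2.55) and Jag2 (2.21) rose among 20 Notch genes, and 0 fell (median 0.28); without scaling they came to 1.88 and 1.52, and 0 Notch genes rose. Both ligands belong to the stratum intermedium and stellate reticulum list, where 5 of 24 rose and 1 fell (median 0.80), against 1 and 1 without scaling. Enpp2, for the lysophospholipase autotaxin, led it with 225, 232 and 221 at P5 and 21.5, 18 and 21.5 at E17 (3.42). Cyp26a1, which degrades retinoic acid, rose by 2.11 and the adhesion gene Nectin4 by 2.15, and the homeobox gene Lhx8 fell by 2.46 on the log2 scale.

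Cell division genes fell together. Of 39 genes of mitosis and G2/M, all in the set, 34 fell and 0 rose, with a median of -2.67. Cdk1, the mitotic kinase (chromosome 10, 69335146 to 69352938), stood at 1.83, 1.70 and 1.83 at P5 and 66.3, 67.8 and 66.2 at E17 (log2 difference -4.61). Top2a, for topoisomerase II, stood at 4.89, 5.40 and 5.06 at P5 and 64.1, 63.6 and 63.6 at E17 (-3.41). The cyclin Ccnb1 stood at 2.09, 2.29 and 2.503 at P5 and 29.4, 30.2 and 28.0 at E17 (-3.20). The proliferation marker Mki67 stood at 2.90, 3.08 and 3.12 at P5 and 24.8, 22.9 and 23.6 at E17 (-2.62). The 5 members under the rule were Bub3, Prc1, Foxm1, Mybl2 and Espl1. Among 47 genes of DNA replication and S phase 16 fell and 0 rose (median -1.85), led by Uhrf1 (-3.18), the thymidylate synthase Tyms (-3.13) and the helicase subunits Mcm5 (-2.92) and Mcm3 (-2.80). Without scaling 34 of the 47 fell.

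The windows of Cdk1 (chr10:69352863-69353162, minus strand) and of the cyclin gene Ccnb2 (chr9:70421505-70421804, minus strand), which fell by 2.37 on the log2 scale, are shown because genes of mitosis are known to share CCAAT and TTTGAA elements near their start. Build, window and capitals are as above.
Cdk1: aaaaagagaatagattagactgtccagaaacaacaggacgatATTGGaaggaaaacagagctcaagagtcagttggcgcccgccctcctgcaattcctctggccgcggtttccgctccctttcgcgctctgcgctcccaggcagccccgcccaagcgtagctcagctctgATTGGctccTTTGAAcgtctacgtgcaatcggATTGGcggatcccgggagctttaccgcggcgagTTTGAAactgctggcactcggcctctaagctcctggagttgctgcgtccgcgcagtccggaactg
Ccnb2: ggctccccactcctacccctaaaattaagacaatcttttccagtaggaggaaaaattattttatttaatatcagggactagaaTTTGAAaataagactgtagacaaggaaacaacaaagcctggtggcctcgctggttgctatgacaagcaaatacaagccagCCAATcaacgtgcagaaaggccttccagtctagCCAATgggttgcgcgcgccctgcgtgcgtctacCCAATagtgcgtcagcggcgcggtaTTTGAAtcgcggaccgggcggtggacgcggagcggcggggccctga

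Each window held 3 matches of CCAAT and 2 of TTTGAA. Of the 39 mitosis genes 33 had a window, and 21 of these (63.6%) held both motifs, against 8.97% of the windows of 27025 genes and 7.17% of those of the 10394 genes of the set that had one. On the enamel list both motifs occurred in 2 of 11 windows, those of Amelx and Ambn.

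Inhibitors of the cell cycle were mixed, with 4 of 19 rising and 1 falling (median 0.19), against 1 and 4 without scaling. Cdkn1a, for p21, stood at 263, 292 and 292 at P5 and 34.2, 28.5 and 32.2 at E17 (log2 difference 3.12). Rb1, the retinoblastoma gene, rose by 2.60 and Gadd45b by 2.13 (1.97 and 1.44 without scaling). Cdkn2b, for p15, stood at 14.1, 12.5 and 10.7 at P5 and 2.30, 1.88 and 2.32 at E17 (2.08; 1.497 without scaling, 1.97 with the largest transcript and 1.99 without DKO P5 replicate 1). Cdkn1c, for p57, an imprinted gene, fell, with 60.9, 55.8 and 51.0 at P5 and 434, 380.0 and 418 at E17 (-2.86).

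Imprinted and fetal growth genes fell or stayed under the rule, 11 of 25 falling and 0 rising (median -1.87; 17 fell without scaling). Dlk1, a Notch-related growth regulator, stood at 1.404, 0.940 and 1.84 at P5 and 159, 108 and 140.0 at E17 (-5.84). H19, a non-coding RNA of chromosome 7 (142575529 to 142578143), stood at 168, 167 and 181 at P5 and 1821, 1679 and 1698 at E17 (-3.33). Its neighbour Igf2, a fetal growth factor (142650766 to 142666816), stood at 52.9, 41.6 and 54.3 at P5 and 511, 471 and 474 at E17 (-3.27). Mest (-3.69), Rian (-3.16), Grb10 (-3.06) and Meg3 (-2.24) fell too. Each of these genes left a gap between its P5 and E17 libraries.

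Of 41 chromatin-modifying enzymes 0 rose and 2 fell (median -0.07), beside 3.16% and 4.29% over all genes, so the count says nothing particular to them: Ezh2, the Polycomb methyltransferase, with 3.57, 3.83 and 3.38 at P5 and 22.4, 22.8 and 21.9 at E17 (-2.35; -1.93 with the largest transcript), and Hdac9 (-2.35; -1.61 with the largest transcript). Among 13 HMG and linker histone genes Hmgn2 and H1f2 rose and 0 fell (median -0.84; 1 rose and 2 fell without scaling). H1f2, a linker histone, stood at 128, 125 and 137 at P5 and 20.3, 18.8 and 19.1 at E17 (2.68; 1.99 without scaling). Of 40 genes of the unfolded protein response and secretory pathway 3 rose by the rule and 0 fell (median 0.66). Those that rose were the stress sensor Ern1 (2.74), and Ssr4 (2.29) and Sec61g (2.26) of the translocon of the endoplasmic reticulum. Without scaling 1 of them rose. Of 23 genes of cholesterol synthesis Idi1 fell (-2.46), and none of 22 immediate-early genes rose or fell by the rule (medians -0.42 and -0.28).

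**Figure D4:**
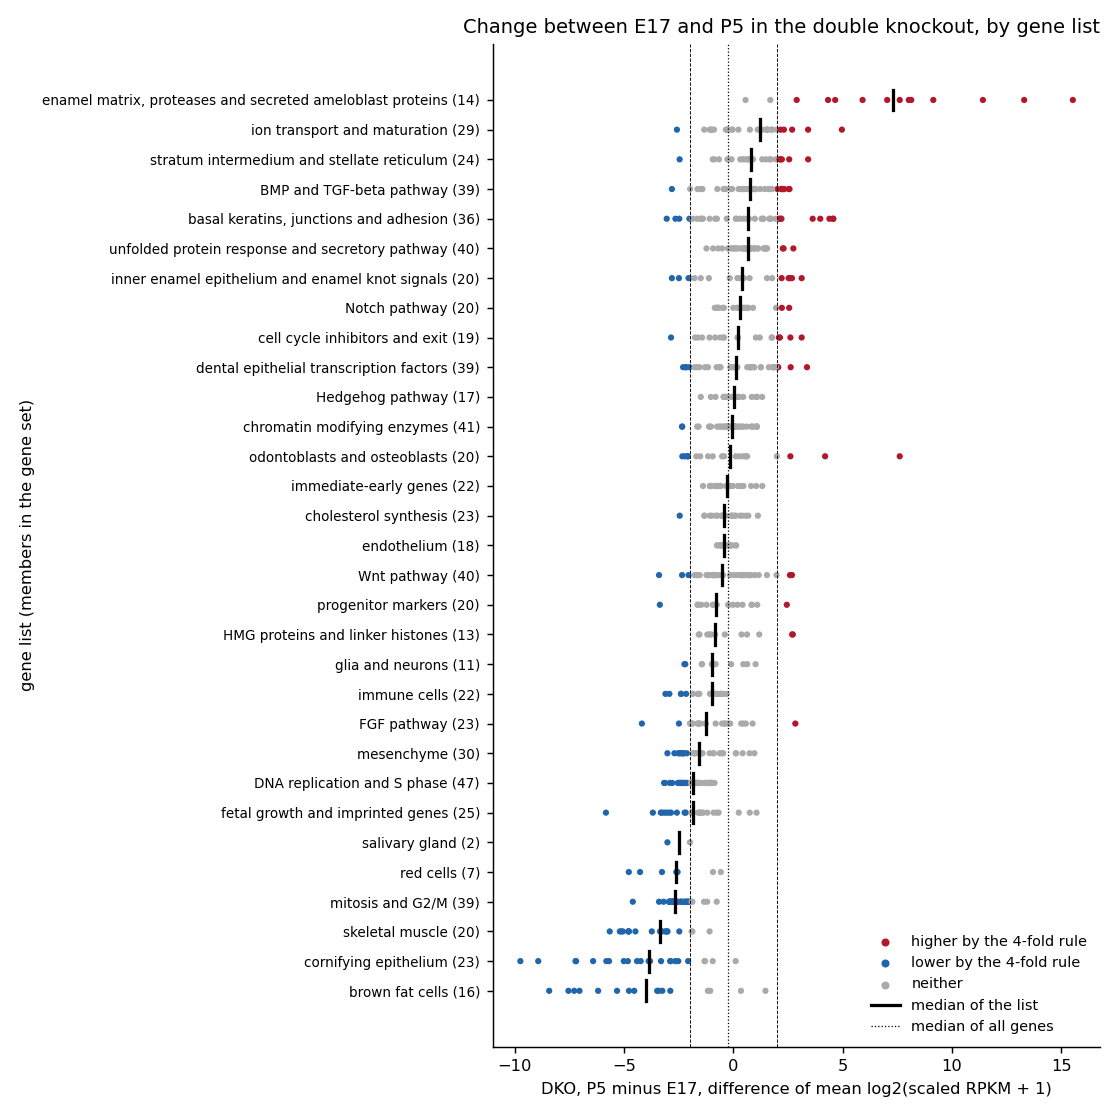
Log2 difference (P5 minus E17 in DKO) of every member in the gene set, 1 row per list with the number of members in brackets, ordered by the list median (black bar). Red points rose and blue points fell by the 4-fold rule, the dashed lines mark it, and the dotted line is the median of all genes, -0.24; the enamel list lies at the top with a median of 7.32 and brown fat at the bottom with -4.02.

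The other genes that fell most mark tissues other than the enamel organ. Of 23 genes of cornifying epithelium (oral mucosa and skin) in the set, 19 fell and 0 rose (median -3.88). Krt13, a keratin of oral mucosa (chromosome 11, 100117327 to 100121566), stood at 0.825, 0.515 and 0.550 at P5 and 1907, 896 and 1598 at E17 (-9.75), and its partner Krt4 at 0.231, 0 and 0.463 at P5 and 833, 359 and 698 at E17 (-8.93). The cornified envelope genes Sprr3 (-7.23), Cnfn (-7.20) and Sprr1a (-6.42) followed. Krt6a fell by 3.88 on the log2 scale, and Krt10 (0.10) stayed under the rule. DKO E17 replicate 2 was the lowest E17 library for these keratins; the summed defining markers were 3009, 1350 and 2516 in the E17 libraries and 24.8, 20.2 and 21.2 in the P5 libraries.

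Brown fat genes formed the next group, in a list put together after its members had been seen among the largest falls. Ucp1, the uncoupling protein that defines brown fat, stood at 0.0300, 0.0468 and 0.0250 at P5 and 131, 174 and 181 at E17 (-7.29). Fabp4, a fatty acid carrier of fat cells, stood at 1.45, 0.904 and 1.81 at P5 and 651, 869.6 and 948 at E17 (-8.43). The list members Cox8b (-7.55) and Cidea (-7.05) fell as well, and Adipoq was listed at 0 in every P5 library and at 58.0, 76.8 and 84.1 at E17. Of 16 members in the set 12 fell and 0 rose (median -4.02). The log2 difference was above 0 for 2 members, Ppargc1a and Dio2, both under the rule. Ppargc1a stood at 5.88, 4.58 and 4.46 at P5 and 1.08, 1.21 and 1.18 at E17. Outside the list, the metabolic genes Gpd1 (-7.42), Thrsp (-7.15) and Pck1 (-6.65) were also among the largest falls. In WT 12 fell as well (median -4.12).

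Skeletal muscle genes fell in 17 of 20 cases and rose in 0 (median -3.34). Acta1, skeletal actin, stood at 1.20, 0.621 and 11.1 at P5 and 109, 137 and 119.6 at E17 (-5.13), so that DKO P5 replicate 3 lay above the other P5 libraries. The 6 defining muscle markers showed the same order, with sums of 4.43, 3.38 and 36.8 at P5 and 411, 453 and 439.8 at E17. Red cell genes fell in 5 of 7 cases (median -2.62), among them the globin genes Hbb-bs (-4.79), Hbb-bt (-4.27) and Hba-a2 (-3.27), which have near-identical copies that may share reads. Immune genes fell in 5 of 22 cases (8 without scaling, median -1.003), 3 of them MHC class II genes (H2-Aa, H2-Ab1 and H2-Eb1) beside the invariant chain Cd74 (-2.93) and the mast cell protease Cpa3 (-3.11). None of 18 endothelial genes rose or fell by the rule (median -0.43). Leaving out the members of the cornifying, muscle, red cell and brown fat lists left 412 genes that rose and 507 that fell.

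Mesenchymal genes fell in 10 of 30 cases and rose in 0 (median -1.58; 19 fell without scaling), for example the collagen genes Col6a3 (-3.02) and Col3a1 (-2.31) and the tooth mesenchyme factor Pax9 (-2.70). Col1a1, the main collagen of bone and dentin, stood at 576, 589.8 and 332 at P5 and 649, 769 and 673 at E17 (-0.52) and stayed under the rule. Of 20 odontoblast and osteoblast genes 3 rose and 4 fell (median -0.16; 3 and 6 without scaling, 4 and 2 with median-of-ratios scaling). Bglap, for osteocalcin, stood at 95.7, 100.4 and 50.9 at P5 and 2.02, 4.88 and 3.69 at E17 (4.19). It rose with Bglap2, which shares sequence with it, and with Dspp. Spp1, for osteopontin, fell, with 20.9, 9.36 and 45.0 at P5 and 89.1, 147 and 100.2 at E17 (-2.34), and came to -1.80 without DKO P5 replicate 2. The odontoblast markers Dspp, Dmp1 and Phex summed to 230 to 252 in DKO at P5 and 4.74 to 7.16 at E17. Dspp, which rose beside the enamel genes, carried this sum at P5, with 223 to 243 against 0.150 to 0.239 at E17. The DKO libraries of the stages overlapped for Dmp1 (4.70 to 5.91 at P5, 3.40 to 5.37 at E17). Those of Phex overlapped as well (1.38 to 2.90 at P5, 1.19 to 1.61 at E17). The part of odontoblasts in the fall or rise of other genes was not tested. Of 11 glial and neuronal genes Ngfr (-2.25) and Gap43 (-2.20; -1.99 with median-of-ratios scaling) fell (median -0.98), and of 2 salivary genes in the set Amy1 fell (-3.02). Mitochondrially encoded genes were not analysed here, since 0 of 15 symbols were in both tables.

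Set beside wild type, most of the change was shared. In WT 331 genes rose and 453 fell by the same rule (2.54% and 3.47% of 13050 genes, 6.01% together). The set was chosen on the DKO libraries alone. Genes that reached the filter only in WT were not counted, so the counts of the genotypes are not on equal terms. Of the genes that rose, 279 rose in both genotypes (67.7% of the DKO list and 84.3% of the WT list), and of those that fell 360 fell in both (64.3% and 79.5%), with 0 genes moving in opposite directions. The genotypes share no libraries. The difference of the stage change was called for 345 genes, 142 more positive in the double knockout (1.09% of 13050 genes) and 203 more negative (1.56%), 2.64% together. Counts of called list members below are to be read beside these shares. Without scaling 39 and 948 were called, and with median-of-ratios scaling 195 and 167, with medians of -0.49 and 0.02 over all genes beside -0.06 in the values given here. At an adjusted p under 0.05 alone, 2284 and 3353 genes passed (17.5% and 25.7%, 43.2% together).

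Among enamel genes the stage change was more often larger in the double knockout. The difference was called upward for 7 of the 14 enamel genes and downward for 1, and the list median was 7.32 in DKO and 5.79 in WT. Csn3 stood at 603, 325 and 161 in DKO and 26.7, 69.3 and 46.9 in WT at P5, where no libraries overlapped, and its stage change differed by 2.71 ± 0.48 (adjusted p = 0.00218). Amtn stood at 166, 127 and 108 in DKO and 8.96, 40.02 and 20.8 in WT at P5 (2.66 ± 0.44, adjusted p = 0.00153). Ambn (1.87 ± 0.19, adjusted p = 2.31e-06), Amelx (1.33 ± 0.27, adjusted p = 0.00186), Odaph (1.31 ± 0.18, adjusted p = 0.000254), Fam20a (1.20 ± 0.11, adjusted p = 2.66e-06) and Acp4 (1.09 ± 0.07, adjusted p = 8.40e-08) were called as well. At P5 Amelx stood at 252842, 246220 and 206579 in DKO against 107682, 119415 and 101959 in WT, and at E17 at 3.39, 3.55 and 5.13 in DKO against 4.55, 5.42 and 4.54 in WT. The Amelx call was lost without WT P5 replicate 3 (adjusted p = 0.0504), without the low-value filter (0.455) and without scaling (difference 0.85), as was that of Acp4 without scaling (0.85). Odam changed less in DKO (-1.496 ± 0.168, adjusted p = 4.43e-05), and at E17 it stood at 6.34, 7.28 and 6.45 in DKO against 2.03, 0.933 and 1.68 in WT. Outside the list, Slc13a5 rose further in DKO (2.17 ± 0.13, adjusted p = 4.17e-07). At E17 it stood at 2.0, 3.29 and 2.56 in DKO against 9.27, 9.20 and 9.63 in WT. At P5 it stood at 113, 115 and 104 in DKO against 67.9, 77.2 and 67.9 in WT. The log2 contrast of DKO over WT was -1.53 at E17 and 0.63 at P5, so the larger part of the difference lay at E17.

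Of 39 transcription factors of the dental epithelium the difference was called for 6, downward for Sp6, Msx2, Irx1 and Irx2 and upward for Nkx2-3 and Nr1d1. Sp6 stood at 201.5, 226 and 218 in DKO against 252, 203.6 and 227 in WT at P5, and at 50.8, 52.4 and 50.3 in DKO against 19.5, 13.8 and 19.5 in WT at E17 (difference -1.58 ± 0.14, adjusted p = 2.31e-06). The P5 libraries of the genotypes overlapped and those of E17 did not. Msx2 had 78.8, 75.8 and 71.6 in DKO against 71.9, 72.7 and 68.8 in WT at P5, and 17.3, 18.7 and 17.9 in DKO against 5.97, 6.36 and 5.96 in WT at E17 (-1.33 ± 0.07, adjusted p = 1.03e-08). The homeobox genes Irx1 and Irx2 differed by -1.61 and -1.26. Nkx2-3, which fell in both genotypes, differed by 1.12 ± 0.16 (adjusted p = 7.80e-05; 0.73, not called, without scaling), and Nr1d1, a clock repressor, by 1.17 ± 0.15 (adjusted p = 1.96e-05). Over all genes 1.09% were called upward and 1.56% downward. Among 40 Wnt pathway genes 5 were called downward (Dkk1, Wif1, Notum, Sostdc1 and Sfrp5, all secreted Wnt inhibitors or antagonists) and 1 upward (Lgr6). Sfrp2, another secreted inhibitor of the list, went the other way without a call, by 0.72 to 0.96 on leaving out 1 library. Among 39 BMP and TGF-beta genes 1 was called downward (Id3) and 2 upward (Tgfbr1 and Chrd). Of 24 genes of the stratum intermedium and stellate reticulum 2 were called, both downward, Cyp26a1 (-2.20) and Vwde (-1.28). Of 11 glial and neuronal genes 3 were called, all downward, among them Tubb3 (-2.46). Cyp26a1 stood at 54.3, 63.1 and 71.3 in DKO against 185, 89.6 and 155 in WT at P5. The neuronal tubulin gene Tubb3 stood at 34.0, 41.0 and 42.9 in DKO against 104, 68.1 and 93.4 in WT at P5, and at 19.04, 19.5 and 18.3 in DKO against 6.89, 7.03 and 6.88 in WT at E17.

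Some cell cycle genes fell further in the double knockout. Of the 39 mitosis genes 34 fell in DKO and 11 in WT, with medians of -2.67 and -1.76, and 7 had a called difference, all toward a larger fall in DKO. Plk1, a mitotic kinase, stood at 1.09, 1.22 and 1.58 in DKO against 3.80, 3.50 and 2.66 in WT at P5, and at 16.6, 16.5 and 16.5 in DKO against 13.2, 14.7 and 14.9 in WT at E17 (-1.11 ± 0.13, adjusted p = 6.37e-05). Ccnb1 (-1.11), Ube2c (-1.16), Kif2c (-1.10), Aurka (-1.08), Cdc20 (-1.05) and Ect2 (-1.04) were the others. Among the 47 genes of DNA replication and S phase 0 had a called difference. There 16 fell in DKO and 6 in WT, with medians of -1.85 and -1.49. Ccnd1, the G1 cyclin, stood at 10.7, 11.4 and 9.63 in DKO against 25.2, 24.6 and 23.6 in WT at P5, and at 35.7, 35.4 and 34.0 in DKO against 21.2, 17.9 and 21.7 in WT at E17 (-1.90 ± 0.10, adjusted p = 9.32e-09). Cdkn2b rose further in DKO (1.41 ± 0.19, adjusted p = 0.000110), with 14.1, 12.5 and 10.7 in DKO against 1.94, 3.69 and 3.07 in WT at P5; the difference was 0.96 without scaling. H1f2 rose further as well (1.32 ± 0.08, adjusted p = 4.25e-08; 0.80 without scaling), and Ezh2 fell further (-1.12 ± 0.09, adjusted p = 9.48e-07).

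**Figure D5:**
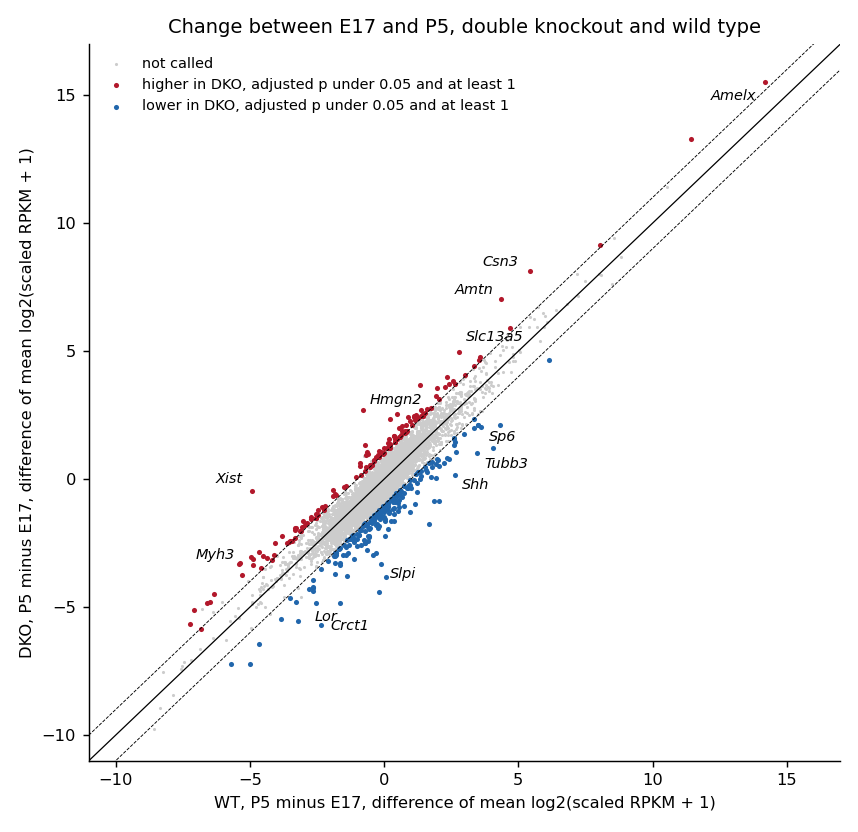
Log2 difference (P5 minus E17) of each gene in DKO (vertical axis) and in WT (horizontal axis). The solid line marks equal change and the dashed lines a difference of 1; red points (142) lie above it and blue points (203) below it with an adjusted p under 0.05 in limma, among them Shh with 0.18 in DKO and 2.64 in WT.

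Markers of other tissues differed between the genotypes too, beside the genes above. Of 23 cornifying genes, which entered the set by their DKO levels alone, 12 had a called difference, all toward a larger fall in DKO. There the list median was -3.88 against -1.65 in WT, and 19 fell against 10. Muscle genes moved the other way: 16 of 20 were called toward a smaller fall in DKO, with medians of -3.34 in DKO and -5.33 in WT. The summed muscle markers at P5 were 4.43, 3.38 and 36.8 in DKO and 3.76, 2.54 and 2.60 in WT. Leaving out 1 library raised the adjusted p (limma) to as much as 0.0915 for Acta1 and 0.0546 for Casq2, which lost their calls. For the muscle genes Actc1, Neb and Tnni1 it stayed at or below 0.00825. All 5 called red cell genes fell further in DKO. The summed muscle markers at E17 were 411, 453 and 439.8 in DKO and 1095, 443 and 915 in WT. The red cell markers at E17 were 2860 to 5273 in DKO and 1761 to 2151 in WT. Mesenchyme markers summed to 1076 to 1560 in DKO and 2212 to 2282 in WT at P5. At E17 they summed to 1957 to 1984 in DKO and 3792 to 4179 in WT, so the genotypes were separate at both stages. Of 30 mesenchymal genes the difference was called for 3, all downward. The part of these tissues in the genotype differences of single genes was not tested.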

How the data were processed

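RNA from molar epithelium was measured in 12 libraries, 3 each of DKO P5, DKO E17, WT P5 and WT E17. The authors deposited 1 table per stage with values per transcript and, per the file headers, a count of alignments per library. The unit is not stated, and the deposited values were read as RPKM because of their range and sums. The submitters' processing notes name Partek and mm10. For the aligner, the annotation and strand: not given in the sources used here. Transcript names have RefSeq form at P5 and Ensembl form at E17.

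RPKM were summed per symbol (32532 symbols at E17, 19450 at P5, 18588 shared), and 13050 genes with at least 1 RPKM in 3 of the 6 DKO libraries were kept. Libraries were scaled to 1 upper quartile, and values were analysed as log2(scaled RPKM + 1), so fold changes of low genes are understated. The genotype contrast was fitted inside each table (limma 3.58.1 in R 4.3.3, two-sided, no replicate block), and the difference of contrasts used Satterthwaite degrees of freedom. Replicate numbers were not treated as pairs. Correlations of deviations lay between -0.19 and 0.23 for the same number and between -0.24 and 0.26 for other numbers. With 3 libraries per group these values cannot exclude pairing. Tables and figures used Python 3.11.15, pandas 2.3.3, numpy 2.4.6 and matplotlib 3.10.9. The fit was also run on simulated libraries with independent noise and known changes. These do not copy the annotation or tissue differences of the real libraries, and no result of that run is given here.

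The libraries follow from genotype and stage. The choice of this comparison and of the gene lists was made with earlier results of these data known, and that of the brown fat list after its genes were seen. Named genes were a set of enamel and cell cycle genes, the 12 largest changes each way, up to 4 members of each list in each direction, up to 4 others by level, and the 6 largest genotype differences each way. Further members were picked for the text once their values had been seen. Alternatives changed the scaling, the pseudocount, the filter, the transcript read, the threshold, the model and the libraries used.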

Additional observations from a re-analysis of the deposited data

Results flagged for a closer look

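The change between E17 and P5 differed between DKO and WT for 345 genes by limma with Benjamini-Hochberg adjustment, 142 more positive and 203 more negative in DKO. Among the 163 of these genes that also rose or fell by the 4-fold rule in either genotype, had a group mean of at least 5 scaled RPKM and were not predicted genes, clones, small RNAs or pseudogenes by symbol, the 6 largest positive differences were those of Xist (4.47), Hmgn2 (3.51), Csn3 (2.71), Amtn (2.66), Slc13a5 (2.17) and Tnni1 (2.12). For Hmgn2, a targeted gene, the part of the differing annotation was not tested.

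Xist stood at 37.0, 42.2 and 1.35 in DKO and 0.438, 0.848 and 1.19 in WT at P5, and at 31.5, 10.02 and 26.3 in DKO and 49.7, 51.0 and 60.5 in WT at E17. Leaving out 1 library at a time moved its difference between 3.74 and 5.84. Tnni1, the slow skeletal muscle troponin, stood at 16.5, 12.5 and 15.7 in DKO and 69.1, 35.9 and 56.4 in WT at E17, and below 1 in every P5 library.

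Within the same limits the 6 largest negative differences were those of Lce3f (-4.21), Lce3a (-3.90), Crct1 (-3.34), Slpi (-3.21), Lor (-3.18) and Plac8 (-2.93). Lce3f, Lce3a and Crct1, genes of the late cornified envelope region, were high in DKO E17 replicates 1 and 3 and lower in replicate 2: Crct1 stood at 99.2, 18.7 and 78.4 in DKO and 7.35, 1.82 and 5.14 in WT at E17. Lce3a was listed at 0 in every WT E17 library, against 26.3, 4.10 and 20.9 in DKO. Lor, for loricrin, stood at 112, 28.7 and 90.7 in DKO and 9.48, 5.81 and 8.58 in WT at E17. The summed markers of cornifying epithelium at E17 were 1350 to 3009 in DKO and 1532 to 2264 in WT, and their part in these differences was not tested.

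Plac8 was unlike the others of its direction. It stood at 10.6, 11.3 and 5.61 in DKO and 20.9, 26.1 and 23.6 in WT at P5, and at 20.7, 13.2 and 17.7 in DKO and 5.66, 4.11 and 4.87 in WT at E17. The libraries of the genotypes did not overlap at either stage.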

How the results depend on the processing

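The counts of genes that rose or fell in DKO (412 and 560) depended on the scaling and the threshold. Without scaling 213 rose and 1203 fell, with a pseudocount of 0.1 the count that fell was 1422, and at 8-fold 140 rose and 159 fell. Other settings stayed within 1.5 times, and leaving out 1 library gave 409 to 419 higher and 554 to 576 lower. For the difference between DKO and WT (142 and 203), the counts were 39 and 948 without scaling, 262 and 539 with a pseudocount of 0.1, and 2284 and 3353 at an adjusted p alone. Leaving out 1 library gave 121 to 170 and 182 to 218. With the replicate number as a block the counts were 147 and 206 and held all calls of the fit without it. Whether the numbers pair the libraries is not stated. No called change or difference named in the text reversed under any of these settings. Of 125 named 4-fold calls 20 were lost without scaling, 8 with median-of-ratios scaling and 8 with the largest transcript.

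Stage and table cannot be told apart, and the annotations of the tables differ. RPKM carry no counting error, so no interval for depth was given. Of each group 3 libraries limit the precision, and their separate origin is not stated. The enamel list held 46.9%, 46.3% and 41.8% of the summed RPKM in the DKO P5 libraries and 0.00772% to 0.00829% in those of DKO E17; its part in the shift without scaling was not tested.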
